A study of Mus musculus with 8 samples.

Results

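The Socs3 locus was examined as the set of phosphorylated STAT3 (pSTAT3) peaks that overlapped chr11:117750000-117900000 on mm9, a 150 kb window around the gene. The window held 12 of the 5343 distinct sites listed in the series at exact positions. The window was chosen by the number of peaks in these same lists, so that number is a description and carries no test. In that window the gene lies near 117.827 to 117.831 Mb. These limits are given to the kb, so a distance from the gene is uncertain by about 0.5 kb at each end. The strand was read from the RefSeq promoter table of GRCm38.p6, in which Socs3 is on the minus strand. Its 5′ end is therefore the higher coordinate, and upstream means higher positions.

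Sites came from chromatin immunoprecipitation and sequencing of mouse embryonic fibroblasts. All groups lacked endogenous STAT3 (STAT3-/-), were selected with puromycin for a construct encoding 1 spliceform, and received 1 nM 4-hydroxytamoxifen for at least 48 h to induce it. The iSTAT3α cells re-expressed STAT3α, the full-length factor, and the iSTAT3β cells re-expressed STAT3β, in which a short alternative tail replaces the C-terminal transactivation domain. Serum was withdrawn 16 h before human recombinant oncostatin M (OSM) was added at 10 ng/mL for 0, 30 or 180 min, and chromatin was precipitated with an antibody to tyrosine-phosphorylated STAT3. Each of the 6 ChIP groups had 1 peak list from merged reads and each spliceform 1 cell line, so replicate error is unknown throughout, and spliceform and cell line cannot be told apart. The lists ranged from 9 peaks (STAT3α, 0 min) to 3891 peaks (STAT3β, 30 min). They give positions only, so peak height and sequencing depth are unknown, and a site missing from a list was not shown to be unbound. Input DNA of both lines entered no comparison.

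Oncostatin M is a cytokine of the interleukin-6 family. Its receptors share the gp130 subunit and activate JAK kinases, which phosphorylate STAT3 on tyrosine so that STAT3 dimers enter the nucleus and bind DNA. Socs3 encodes suppressor of cytokine signalling 3, an SH2 domain protein that binds gp130 and JAK and turns signalling down. STAT3 induces the gene, which makes Socs3 a standard example of negative feedback in this pathway.

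The gene's own promoter is shown because a site at its 5′ end was the only one in the window listed in 4 of the 6 lists. The RefSeq table gives 1 start for Socs3, and the 250 bases before it occupy chr11:117969367-117969616 on the minus strand of GRCm38.p6. These coordinates cannot be laid on the mm9 sites, so whether this stretch lies within a listed peak was not tested. Capitals mark the match to TTCNNNGAA, the loose form of the STAT recognition element:
Socs3 promoter: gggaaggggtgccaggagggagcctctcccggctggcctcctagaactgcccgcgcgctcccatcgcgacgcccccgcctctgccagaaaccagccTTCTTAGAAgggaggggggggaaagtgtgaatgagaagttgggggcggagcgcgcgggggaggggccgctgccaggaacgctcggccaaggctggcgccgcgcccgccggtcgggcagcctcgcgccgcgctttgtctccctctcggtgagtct
The stricter palindrome TTCCNGGAA had no match in these 250 bases. It was found in 0.913% of the 32851 promoter stretches of that length in the table. The loose form matched at 1 place, TTCTTAGAA, from 154 to 146 bases before the start, and 7.02% of all stretches held such a match. Both motifs read the same on both strands, and every match to the stricter one is also a match to the loose one. The stretch was rich in G and C, at 71.6% against a median of 52.4% over all stretches. A match describes letters only, and no match says nothing about bases outside this stretch. Bases after the start were not searched, although the site at the 5′ end was centred 0.24 kb inside the listed gene limits.

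Without cytokine, neither list had a peak at an exact position in the window. After 30 min of OSM the STAT3α list had 11 sites there and the STAT3β list 9, which made 12 distinct sites. After 180 min, 1 STAT3α site and 2 STAT3β sites remained listed, and these were among the sites listed at 30 min in both spliceforms. All 12 sites were 400 bp wide, the median width of every list, and a site found in several lists had the same start and end in each.

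**Figure D1:**
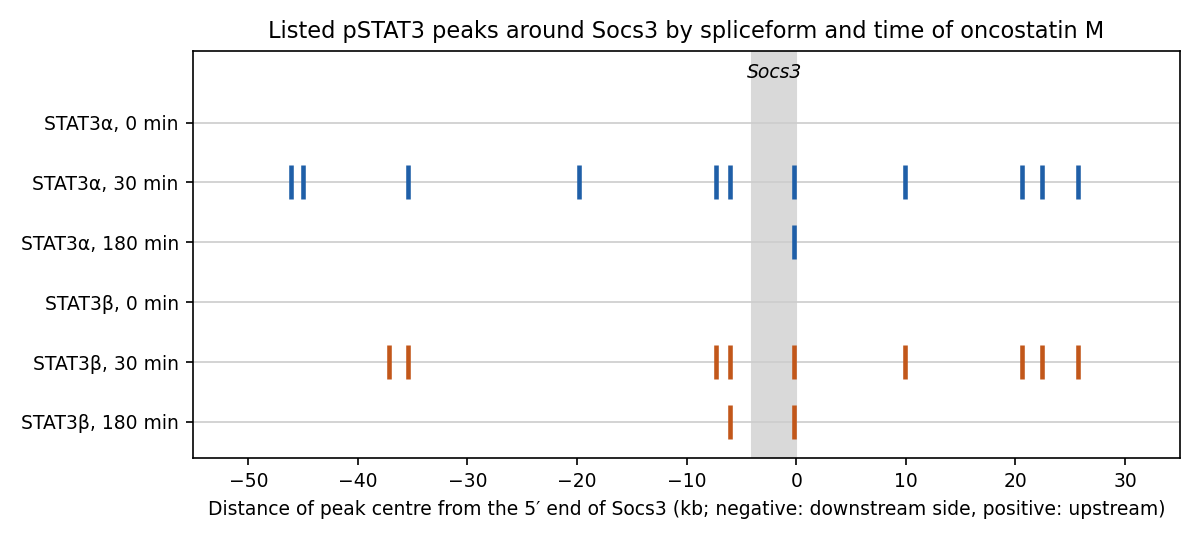
Each tick is a listed peak, placed on the x axis by the distance of its centre from the 5′ end of Socs3 in kb, with 1 row for each of the 6 lists, and the grey band marks the gene limits. The 0 min rows could not hold a tick, since 0 min positions in this range are rounded and are not drawn. The 30 min rows hold 11 and 9 ticks on both sides of the gene. The 180 min rows hold 1 and 2 ticks at and just below the gene.

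The site at the gene itself lay at chr11:117830560-117830959. Its centre was 0.24 kb inside the listed 5′ end, which is within the rounding of the gene limits. It was present in the STAT3α and STAT3β lists at 30 min and in both again at 180 min. No other site of the locus was in the STAT3α 180 min list.

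Upstream of Socs3 there were 4 sites, and both spliceforms had all 4 of them at 30 min. The nearest was chr11:117840752-117841151, centred 9.95 kb from the 5′ end. The other upstream sites formed a group centred 20.6, 22.4 and 25.7 kb from the 5′ end, at chr11:117851378-117851777, chr11:117853165-117853564 and chr11:117856536-117856935. None of the 4 was listed at 180 min for either spliceform. The upstream side therefore had the same listed sites for STAT3α and STAT3β at 30 and at 180 min.

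On the downstream side lay 7 sites, of which 3 were in both 30 min lists, 3 were listed for STAT3α only and 1 for STAT3β only. The pair closest to the gene was shared. It consisted of chr11:117824769-117825168, 1.83 kb beyond the 3′ limit of the gene, and chr11:117823497-117823896, 3.10 kb beyond it. The first of these was also in the STAT3β 180 min list and not in the STAT3α one. This was the only difference between the spliceforms at 180 min in the window, and it was a single site without a replicate.

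All 4 sites listed for only 1 spliceform at 30 min were farther out on the downstream side. STAT3α alone had chr11:117810963-117811362, which was 15.6 kb from the gene and 12.5 kb, start to start, from the nearest STAT3β site. STAT3α alone also had a close pair at chr11:117784693-117785092 and chr11:117785831-117786230, which were 41.9 and 40.8 kb from the gene and separated by 0.738 kb. Their nearest STAT3β site was 8.91 and 7.77 kb away, start to start. STAT3β alone had chr11:117793600-117793999, 33.0 kb from the gene. A shared site, chr11:117795429-117795828, was separated from it by 1.43 kb and was the remaining shared member on this side, 31.2 kb from the gene. In genome order the 7 sites from 117823497 to 117856935 were thus all in both lists, over 33.4 kb that include the gene, whereas 1 of the 5 sites below them was. This division was noticed in the positions and was not tested.

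Of the 12 sites, 8 were in both 30 min lists, or 66.7% (95% exact Clopper-Pearson interval 34.9 to 90.1%), beside 42.7% of all 5338 sites listed at 30 min. These shared sites were 72.7% of the 11 STAT3α sites (39.0 to 94.0%), beside 61.2% of the whole STAT3α list. They were 88.9% of the 9 STAT3β sites (51.8 to 99.7%), beside 58.5% of the whole STAT3β list. All 3 intervals include the value over all sites. The intervals cover counting over sites only, and sites as close as these are not independent.

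At 180 min the STAT3α list retained 1 of its 11 sites of the window (9.09%, interval 0.230 to 41.3%), beside 0.940% of its 3725 sites overall. The STAT3β list retained 2 of 9 (22.2%, interval 2.81 to 60.0%), beside 3.03% of its 3891 sites. Of the 8 sites shared at 30 min, 1 was in both 180 min lists, beside 1.19% of all 2278 shared sites, and 2 were in either 180 min list, beside 5.27%. With 1 or 2 late sites these shares are imprecise, and each interval includes the value over all sites. The site at the 5′ end belonged to the 27 sites that both spliceforms kept listed at 180 min. It had the most crowded surroundings of these 27, with 11 other 30 min sites within 75 kb of its centre. The next had 8, and the median was 1, the same as over all 30 min sites. Every site of the window had 11 such neighbours, so the value is not particular to the site at the 5′ end. The window was chosen for its number of sites, and this crowding follows from that choice.

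The 0 min lists need a separate account, because 6 of their positions had been rounded to the nearest Mb. The STAT3β list held 2 such peaks on chromosome 11. One of them, at 118 Mb, stands for any position from 117.5 to 118.5 Mb and so could lie in the Socs3 window or outside it, and the other was too far away to lie in the window. The other lists together had 21 exact sites in that range, 12 of them in the window. Only 2 sites in the range were listed at 180 min, and both were in the window. The STAT3α 0 min list had no rounded peak on chromosome 11. Whether the STAT3β peak at 118 Mb was a Socs3 site cannot be told from the list, and the 0 min count of STAT3β at the locus is 0 or 1.

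The sites of the locus were close together, which follows from choosing the window by its number of sites. From first to last they spanned 72.2 kb. The gaps between neighbours ran from 0.738 to 15.1 kb with a median of 5.39 kb, whereas the median gap between neighbouring 30 min sites across the genome was 122 kb. The next 30 min site below them, chr11:117684044-117684443, was 100 kb away, less than that median gap, and in both lists. The next above, chr11:118173655-118174054, was 317 kb away and in the STAT3β list alone. In the RefSeq order of GRCm38.p6 the protein-coding neighbours were Tha1, Tmem235 and Birc5 on the lower side, which is downstream of Socs3, and Pgs1, Dnah17 and Cyth1 on the higher side. Birc5 encodes survivin, an inhibitor of apoptosis, and Pgs1 an enzyme of mitochondrial phospholipid synthesis. No annotation of mm9 was used, so which of the outer sites lie within these genes was not determined.

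For sites of either 30 min list, the name of densest cluster held only with a tie. It also held only for some ways of placing windows and forming sites. Among 150 kb windows centred on each 30 min site, the highest count was 12. Each of the 12 Socs3 sites had such a window, and so did 1 site elsewhere, in the window chr10:79474748-79624748. Next came windows of 11 sites, chr5:91173910-91323910, chr17:35833766-35983766 and chr17:84368946-84518946. The median over all windows, overlapping ones included, was 2 sites. In 50 kb windows the locus had 7 sites and tied with chr8:87464707-87514707. At 20 kb the locus was not the densest, with at most 4 sites against 6 in other places. In 150 kb windows the STAT3α list alone gave it 11 sites, a tie with chr17:35865194-36015194. With the STAT3β list alone it had 9 sites, and 2 other windows had 10. Each list alone gave it 7 sites per 50 kb, against at most 6 elsewhere, and 4 per 20 kb, against up to 6. When 150 kb windows started at each site, another window held 13 sites, against 12 at Socs3. With gaps of 1 kb or less merged, another window held 11, against 10 at Socs3.

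Counted by sites of both spliceforms, Socs3 stood alone at each of the 3 window lengths, with windows centred on sites. It had 8 such sites per 150 kb, against at most 7 in another window. Within 50 kb it had 7, against at most 4 elsewhere, and within 20 kb it had 4, against at most 3. The window on chromosome 10 that tied for all sites had 6 of its 12 in both lists, 2 listed for STAT3α only and 4 for STAT3β only. The windows with 11 sites had 5, 6 and 4 in both. At 180 min the chromosome 10 window kept 1 STAT3β site and no STAT3α site, and the 3 windows of 11 sites kept none. Socs3 kept the sites described above. Over all 30 min sites, 0.940% of the STAT3α list and 3.03% of the STAT3β list stayed listed. With shares this low, keeping none does not set a window apart. These are ranks of windows in 1 pair of lists, and no test was made of them. For sites of both spliceforms, merged gaps and windows starting at each site were not tried.

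**Figure D2:**
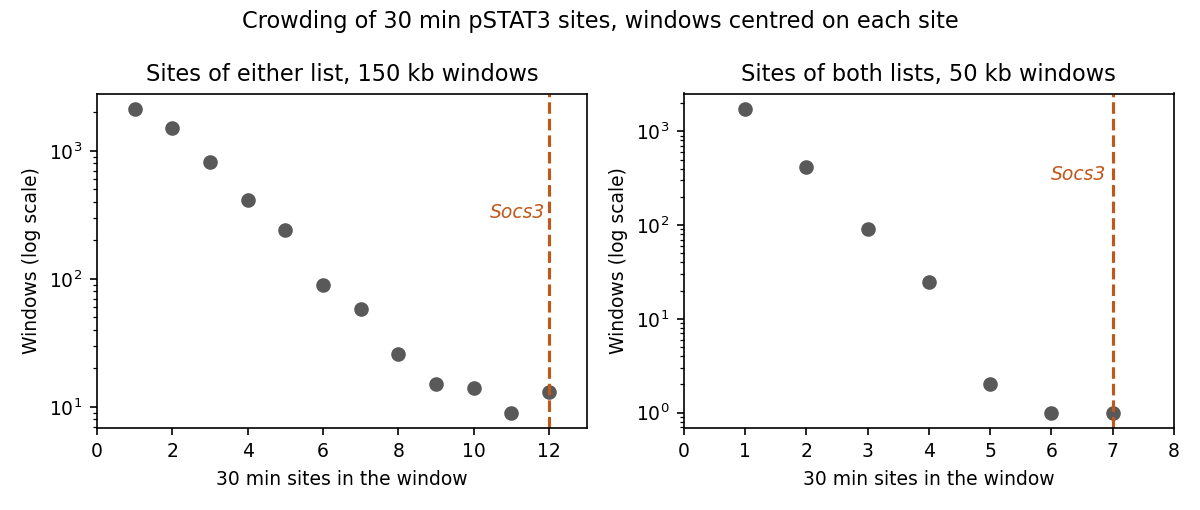
The points give the number of windows (y axis, log scale) that held each number of 30 min sites (x axis), for sites of either list in 150 kb windows (left) and sites of both lists in 50 kb windows (right), and the dashed line marks the fullest window at Socs3. Each site has its own window, so overlapping windows of the same cluster are counted separately. Windows become rarer as they fill, and the lines stand at 12 and 7 sites, the highest counts in each plot.

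**Figure D3:**
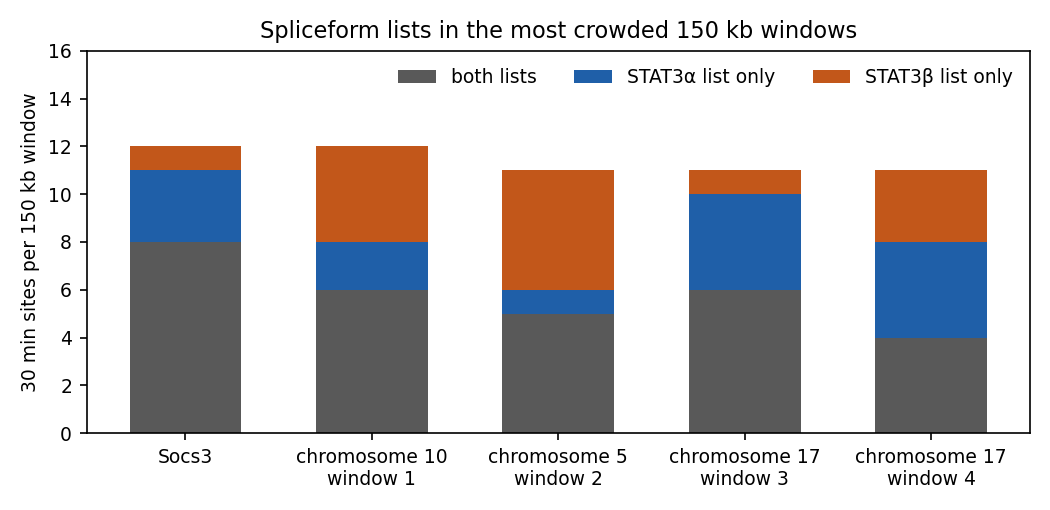
Bars give the number of 30 min sites per 150 kb window at Socs3 and in the 4 other windows with the most sites, divided into sites of both lists, of the STAT3α list only and of the STAT3β list only. Socs3 has 8 sites in both lists, and the other bars have 6, 5, 6 and 4.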

How the data were processed

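Per the submitters' processing notes, the build was mm9 and the tools included MACS2 2.1.1.20160309, HOMER 4.9, STAR 2.5.0a, Trim Galore 0.4.2 and bedtools. What each did, how peaks were thresholded and whether input DNA was used as control were not given in the sources used here. Duplicates were made and aligned reads merged, per the labels. The deposited files give the chromosome, start, end and name of each peak, with no score, p-value or count of reads, and 0 min positions of 100 Mb and more are rounded. Groups were taken from the sample titles.

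Sites were formed from peaks of different lists that overlapped by 1 bp or more. Positions count from 1. Windows of 150, 50 and 20 kb were centred on each 30 min site, and overlapping windows were counted once. The ranking code was run on simulated lists with a planted cluster far denser than the rest. That run checks the counting only and says nothing about the rank of Socs3. All sites of the Socs3 window were named, with the fullest other windows. The named windows were to be 3, and a tie made them 4. The window, lists and alternatives were chosen with earlier results of these data known. Shares carry 95% exact binomial intervals, and no test across samples was possible with 1 list per group. Motifs were searched in the promoter sequences of RefSeq (GRCm38.p6). Python 3.11.15, scipy 1.17.1 and matplotlib 3.10.9 were used.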

Additional observations from a re-analysis of the deposited data

How the results depend on the processing

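Of 44 alternative values for 10 results, 35 stayed within the set limits (a count within 1.5 times the reported one, a share within its binomial interval). Requiring reciprocal overlap, or centres within 200 bp, could change no count at the locus, because shared sites had the same start and end in each list. These alternatives are among the 35 and were no check of the counts. Keeping only sites within 25 kb of Socs3 left 7 STAT3α sites and 7 sites of either list at 30 min. The number of other windows with as many or more 30 min sites, reported as 1, became 11 in windows of 20 kb, 3 with the STAT3β list alone, 0 with sites of both lists, 6 with gaps of 1 kb or less merged, and 2 when windows started at each site, an alternative added after seeing the data. In the last case another window held 13 sites, against 12 at Socs3. With merged gaps Socs3 had 10 and another window 11. Counting the rounded position gave 1 STAT3β site at 0 min. The loose motif gave 1 promoter match, against 0 for the strict one. No paired analysis was possible because each group had 1 list and the labels give no replicate numbers. A stricter peak threshold could not be tried without scores, and depth is unknown.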
